A study of Mus musculus with 39 samples.

Results

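The endoneurial vessel and pericyte genes are 38 genes that mark or regulate blood vessels, picked by name from their known roles out of the 55573 genes in the count tables. All 38 passed the filter on low counts and are among the 18442 genes tested. They comprise 11 endothelial adhesion and surface proteins, 5 receptors, 6 ligands, 5 transcription factors, 7 barrier and transport genes and 4 pericyte genes. The data are RNA-seq counts from 39 libraries of mouse sciatic nerve endoneurium, the inner tissue that remains after the perineurial sheath has been stripped off. In each mouse 1 sciatic nerve was crushed at mid-thigh, and the distal part was taken 2 or 4 weeks later (2 or 4 wpc, weeks post crush) beside the uninjured nerve of the other side. Mice were Lepr fl/fl (Lepr-ctrl) or Lepr fl/fl::Dhh-Cre (Lepr-cKO), on a C57BL/6 background, of both sexes and 2 to 4 months old. Both genotypes thus carry the floxed leptin receptor alleles, and Cre, driven by Dhh in Schwann cells from embryonic life on, deletes exon 1. A truncated receptor transcript can still be made, so the gene's summed count does not check the deletion.

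At 2 wpc there were 5 healthy and 5 injured Lepr-ctrl nerves and 6 healthy and 5 injured Lepr-cKO nerves. At 4 wpc there were 5 healthy and 4 injured nerves of each genotype. Each library is 1 nerve of 1 mouse, and 17 mice gave both nerves. The 2 time points came from separate mice, each with their own healthy nerves. Library totals ranged from 10905806 to 45016322 counts, with a median of 27752451. Levels are given as CPM (counts scaled to the same library size) after TMM scaling, a correction for library composition. Because whole tissue was sequenced, fewer cells of a type and less RNA per cell cannot be told apart, nor can a change in other cell types' share of the RNA.

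Blood vessels of the endoneurium are lined by endothelial cells joined by tight junctions, which form the blood-nerve barrier, and are wrapped by pericytes. VEGF ligands act through Kdr and Flt1, angiopoietins through Tek, apelin through Aplnr, and Dll4 through Notch receptors, and together they control sprouting, stability and the identity of vessels. After nerve injury the barrier is known to open, and vessels are known to precede regrowing Schwann cells and axons.

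The upstream sequences of 5 genes that the results turn on are shown first, to set genes that rose beside genes that fell. They are the 250 bases before the transcription start in RefSeq (GRCm38.p6), read 5′ to 3′ on the gene's strand. Capitals mark AGGAAG or its reverse complement CTTCCT, a longer string around GGAA, the core of sites for ETS factors such as the member Erg. A GGAA outside this string is not marked. Eng (chr2:32646345-32646594, plus strand), Emcn (chr3:137340828-137341077, plus strand), Tal1 (chr4:115056176-115056425, plus strand), Mfsd2a (chr4:122961189-122961438, minus strand) and Rgs5 (chr1:169655251-169655500, plus strand) read as follows.
Eng: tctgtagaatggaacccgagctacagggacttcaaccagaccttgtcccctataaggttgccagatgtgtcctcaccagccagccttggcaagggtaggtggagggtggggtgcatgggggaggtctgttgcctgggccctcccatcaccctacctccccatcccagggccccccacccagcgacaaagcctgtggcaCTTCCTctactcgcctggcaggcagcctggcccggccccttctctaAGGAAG
Emcn: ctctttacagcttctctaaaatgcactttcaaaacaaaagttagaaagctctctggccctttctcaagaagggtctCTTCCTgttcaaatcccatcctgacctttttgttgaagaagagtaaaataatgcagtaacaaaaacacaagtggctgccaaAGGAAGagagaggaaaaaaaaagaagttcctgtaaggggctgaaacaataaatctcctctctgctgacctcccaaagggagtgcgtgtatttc
Tal1: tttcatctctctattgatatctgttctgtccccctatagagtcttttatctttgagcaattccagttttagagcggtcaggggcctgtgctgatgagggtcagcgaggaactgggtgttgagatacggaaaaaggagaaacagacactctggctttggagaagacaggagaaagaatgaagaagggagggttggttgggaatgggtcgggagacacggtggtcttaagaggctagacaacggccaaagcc
Mfsd2a: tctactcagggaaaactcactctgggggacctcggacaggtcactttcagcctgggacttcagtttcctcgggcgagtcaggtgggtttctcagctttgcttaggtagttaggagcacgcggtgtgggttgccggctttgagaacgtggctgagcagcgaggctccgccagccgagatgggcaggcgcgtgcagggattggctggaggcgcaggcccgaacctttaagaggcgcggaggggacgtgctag
Rgs5: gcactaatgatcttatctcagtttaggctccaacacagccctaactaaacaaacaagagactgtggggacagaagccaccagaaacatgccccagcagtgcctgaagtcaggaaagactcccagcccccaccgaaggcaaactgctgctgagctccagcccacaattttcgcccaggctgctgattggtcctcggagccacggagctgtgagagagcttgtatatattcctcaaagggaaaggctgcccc
Eng and Emcn rose after crush and hold 2 matches each, whereas Tal1, which also rose, and Mfsd2a and Rgs5, which fell, hold none. A RefSeq start within 100 bases of the annotated gene start was found for 19 of the 38 genes, and 7 of these 19 hold AGGAAG on either strand, against 29.5% of 32851 promoters of the same length. The chromosome that holds Pdgfrb was left out of the search for members but not of the 32851 promoters. The letters ACAAT, a core of SOX sites, were in 7 of the 19 against 27.7% of promoters, and CANNTG, the E-box bound by Tal1, in 9 of the 19 against 66.2%. A match describes the letters only.

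Before the vessel genes, 3 features of the libraries need stating. The healthy endoneurium was rich in Schwann cell RNA, the 10 myelin genes summing to 103400 ± 9030 CPM (mean ± SD, n = 5) in Lepr-ctrl at 2 wpc. Mitochondrially encoded genes took 1.92% to 4.25% of counts in healthy nerves but 2.95% to 33.0% in injured ones. The share varied widely within the injured groups except Lepr-ctrl at 4 wpc, where it was 17.2% to 21.6%. An injured Lepr-cKO nerve at 2 wpc, called the muscle-carrying nerve here, held skeletal muscle RNA, its 10 muscle genes summing to 39190 CPM against at most 24.9 CPM in the other 4 nerves of its group. Its most abundant muscle gene, Acta1, stood at 10398 CPM. An injured Lepr-cKO nerve at 4 wpc stood apart in 5 vessel genes and is called the outlying nerve. Another injured Lepr-cKO nerve at 2 wpc, called the vessel-rich nerve, had a summed level of the 11 surface genes of 4865 CPM against 969.1 to 2899 CPM in the other 4 nerves of its group, with 29.7% mitochondrial counts. Calls of members that are lost without 1 of these 3 nerves are given beside the genes. Lepr itself measured 53.3 ± 17.7 CPM (n = 5) in injured Lepr-ctrl nerves at 2 wpc and 69.7 ± 33.0 CPM (n = 5) in injured Lepr-cKO nerves.

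The first question was how the vessel and pericyte genes responded to crush. Endothelial genes were more often higher than lower, and none of the 4 pericyte members rose. The largest rises were in Plvap, a protein of the diaphragms of leaky capillaries, and Aplnr, the apelin receptor. Among genes that fell were Mfsd2a, a lipid transporter of barrier vessels that holds down transcytosis, Angpt2, an angiopoietin that counters Tek signalling, and the pericyte genes Rgs5, Pdgfrb and Abcc9. A gene counts as changed at an adjusted p under 0.05 in edgeR's quasi-likelihood test (Benjamini-Hochberg over all genes tested) with a change of more than 2-fold.

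In Lepr-ctrl nerves at 2 wpc, 12 of the 38 rose, against 19.8% of all genes tested, and 6 fell, against 14.3%. At 4 wpc, 15 rose (20.1% of all genes) and 6 fell (15.9%). In Lepr-cKO nerves, 21 rose (20.9%) and 3 fell (13.4%) at 2 wpc, and 9 rose (16.8%) and 5 fell (10.8%) at 4 wpc. The median log2 fold change of the 38 was 0.59, 0.80, 1.10 and 0.34 in these comparisons, and that of all genes 0.078, 0.024, 0.097 and 0.057. Without the muscle-carrying nerve the Lepr-cKO count at 2 wpc was 21 higher (20.3% of all genes in that fit) and 5 lower (14.3%), the added falls being Abcc9 and Rgs5, while Flt1 was gained (log2 1.04, adjusted p = 0.00468) and Vegfa lost among the rises. Without the outlying nerve the Lepr-cKO count at 4 wpc was 4 higher and 5 lower, against 15.1% and 9.95% of all genes in that fit. The rises in Lepr-cKO at 4 wpc thus rest in part on 1 nerve, and the share of members that fell in Lepr-ctrl was near that of all genes. At 2 wpc 16 members were called in Lepr-cKO without the vessel-rich nerve, in place of 24, with 13 higher (20.4% of all genes in that fit) and 3 lower (13.4%).

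Over the 17 mice with both nerves, a fit with the mouse as a block changed 13 of these calls. Robo4 was under 2-fold in Lepr-ctrl at 2 wpc (log2 0.89) and in Lepr-cKO at 4 wpc (0.92), as were Icam2 (0.71), Cd34 (0.91), Vwf (0.73) and Erg (0.74) in Lepr-cKO at 2 wpc and Sox17 (1.00 after rounding) in Lepr-cKO at 4 wpc. Vegfa in Lepr-cKO at 2 wpc was at 0.42 (adjusted p = 0.278). Calls were gained for Ocln in Lepr-ctrl at 2 wpc (1.25), Cdh5 (1.02) and Erg (1.00) in Lepr-ctrl at 4 wpc, and Abcc9 (-1.83) and Rgs5 (-1.21) in Lepr-cKO at 2 wpc.

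**Figure D1:**
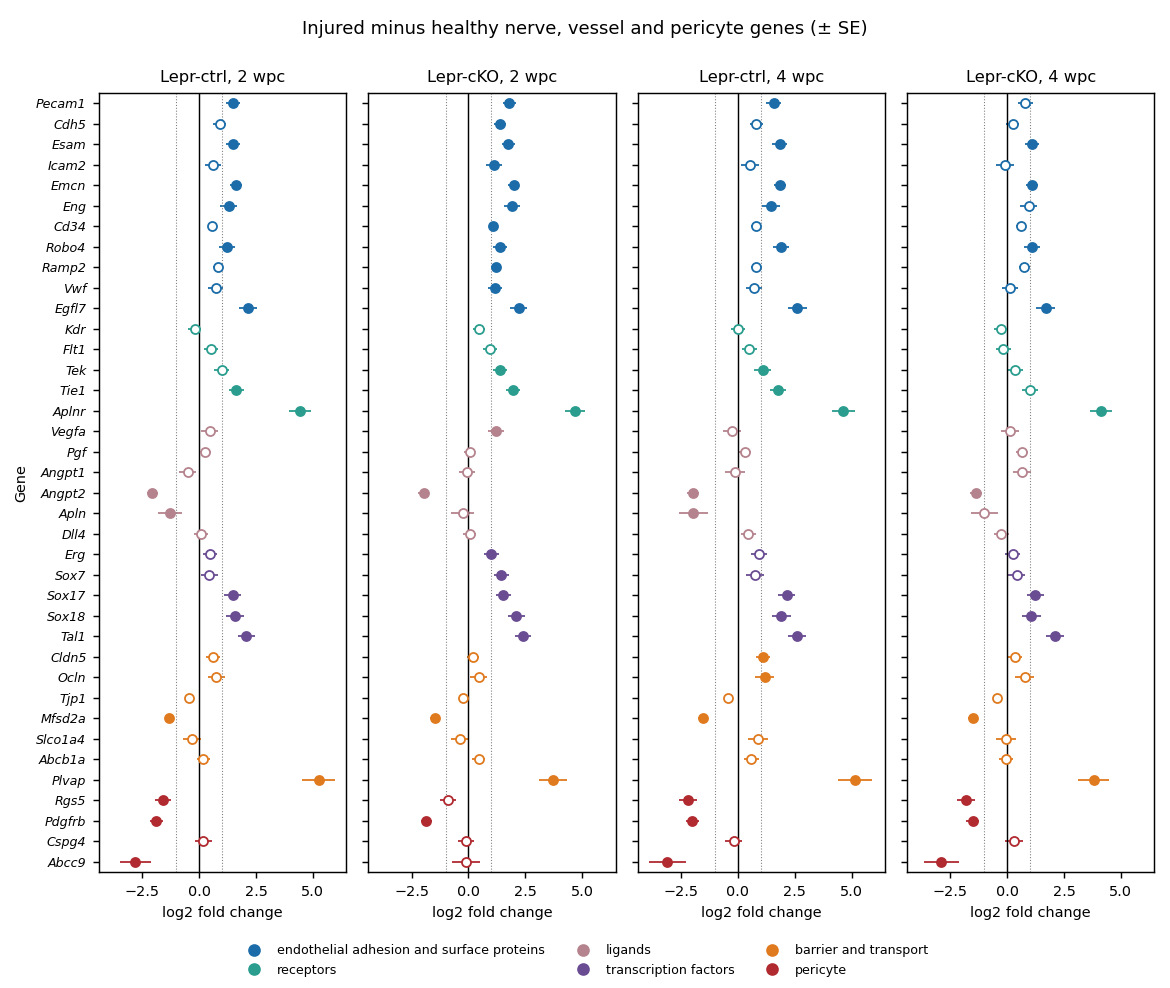
Log2 fold change of injured over healthy nerves (x axis, ± SE) for each of the 38 genes (y axis, ordered and coloured by role) in the 4 comparisons. Filled circles mark genes past both cut-offs and dotted lines a 2-fold change. Plvap and Aplnr lie farthest to the right, and Angpt2, Mfsd2a and Pdgfrb lie left of the 2-fold line in each panel.

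Of the 11 endothelial adhesion and surface proteins, 6 rose in Lepr-ctrl at 2 wpc (19.8% of all genes), 6 at 4 wpc (20.1%), 11 in Lepr-cKO at 2 wpc (20.9%) and 4 at 4 wpc (16.8%), and none fell. Egfl7, a secreted protein of the vessel wall, Emcn, a sialomucin of capillary and venous endothelium, Esam, an endothelial junction protein, and Robo4, an endothelial guidance receptor, were called higher in all 4 comparisons. Without the outlying nerve, Egfl7 alone of these 11 was called in Lepr-cKO at 4 wpc, at 1.10 (log2, adjusted p = 0.0219), and Emcn was at 0.67 (0.0335), Esam at 0.56 (0.119) and Robo4 at 0.51 (0.212). Robo4 was also under 2-fold, at 0.89, in Lepr-ctrl at 2 wpc without the nerve with the most mitochondrial counts.

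Egfl7 at 2 wpc measured 229.1, 272.2, 652.6, 216.9 and 346.4 CPM in injured Lepr-ctrl nerves and 74.3, 89.4, 64.7, 71.2 and 89.1 CPM in healthy ones. In Lepr-cKO mice, Egfl7 measured 157.3, 175.3, 421.8, 1117 and 310.2 CPM in injured nerves at 2 wpc and 68.9 to 144.4 CPM (median 79.1, 6 nerves) in healthy nerves. Among 2 wpc nerves no injured nerve reached down to the healthy ones in either genotype. Egfl7 at 4 wpc measured 573.4, 409.7, 388.9 and 465.4 CPM in injured Lepr-ctrl nerves and 80.2, 79.8, 58.6, 79.2 and 77.5 CPM in healthy ones. In Lepr-cKO mice, Egfl7 measured 88.8, 217.6, 247.8 and 555.7 CPM in injured nerves at 4 wpc and 85.2, 68.8, 71.7, 107.1 and 95.2 CPM in healthy nerves. In Lepr-cKO the lowest injured nerve lay within the healthy range, and in Lepr-ctrl the groups were apart. Egfl7 differed by a log2 fold change of 2.14 ± 0.4 (adjusted p = 1.93e-05) and 2.61 ± 0.42 (1.88e-06) in Lepr-ctrl, and 2.21 ± 0.38 (4.34e-06) and 1.70 ± 0.41 (0.000708) in Lepr-cKO, each pair at 2 and 4 wpc. Exons of Egfl7 overlap those of other genes over 459 bases, and no source gives a strand setting for the counting, so part of its count is uncertain.

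Emcn at 2 wpc measured 54.4, 79.8, 78.9, 47.8 and 81.5 CPM in injured Lepr-ctrl nerves and 21.1, 24.2, 22.6, 25.0 and 18.96 CPM in healthy ones. In Lepr-cKO mice, Emcn measured 50.4, 62.3, 112.2, 169.8 and 61.6 CPM in injured nerves at 2 wpc and 20.004 to 29.9 CPM (median 22.000, 6 nerves) in healthy nerves. No healthy nerve reached the injured ones. Emcn at 4 wpc measured 98.6, 56.7, 52.7 and 72.2 CPM in injured Lepr-ctrl nerves and 26.6, 16.3, 15.4, 15.5 and 22.8 CPM in healthy ones. In Lepr-cKO mice, Emcn measured 40.8, 34.9, 40.7 and 91.7 CPM in injured nerves at 4 wpc and 25.5, 20.8, 20.2, 27.7 and 26.5 CPM in healthy nerves. The separation held at 4 wpc too, with the outlying nerve far above the others of its group. Emcn differed by a log2 fold change of 1.61 ± 0.26 (adjusted p = 2.47e-06) and 1.86 ± 0.28 (5.46e-07) in Lepr-ctrl, and 1.98 ± 0.25 (2.13e-08) and 1.10 ± 0.27 (0.000934) in Lepr-cKO, each pair at 2 and 4 wpc.

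Esam at 2 wpc measured 121.0, 163.3, 198.1, 112.2 and 178.8 CPM in injured Lepr-ctrl nerves and 54.2, 59.0, 57.0, 54.1 and 50.9 CPM in healthy ones. In Lepr-cKO mice, Esam measured 83.5, 127.5, 276.9, 390.4 and 124.5 CPM in injured nerves at 2 wpc and 49.1 to 73.0 CPM (median 59.3, 6 nerves) in healthy nerves. All injured nerves at 2 wpc lay above the healthy ones. Esam at 4 wpc measured 234.4, 163.6, 135.99 and 231.9 CPM in injured Lepr-ctrl nerves and 65.6, 48.5, 35.2, 61.4 and 57.0 CPM in healthy ones. In Lepr-cKO mice, Esam measured 67.7, 94.6, 104.7 and 248.9 CPM in injured nerves at 4 wpc and 56.7, 47.7, 49.9, 77.0 and 68.9 CPM in healthy nerves. At 4 wpc 1 injured Lepr-cKO nerve lay among the healthy ones. Esam differed by a log2 fold change of 1.49 ± 0.3 (adjusted p = 6.58e-05) and 1.84 ± 0.32 (6.57e-06) in Lepr-ctrl, and 1.75 ± 0.29 (2.59e-06) and 1.10 ± 0.31 (0.00344) in Lepr-cKO, each pair at 2 and 4 wpc.

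Icam2, an adhesion molecule for leukocytes, is the contrast, as it passed both cut-offs only in Lepr-cKO at 2 wpc. Icam2 at 2 wpc measured 11.1, 14.6, 11.1, 8.61 and 15.9 CPM in injured Lepr-ctrl nerves and 8.77, 8.06, 7.52, 8.21 and 7.79 CPM in healthy ones. In Lepr-cKO mice, Icam2 measured 6.57, 15.6, 20.9, 41.9 and 6.65 CPM in injured nerves at 2 wpc and 5.57 to 11.99 CPM (median 8.08, 6 nerves) in healthy nerves. The groups overlapped in both genotypes. Icam2 at 4 wpc measured 8.97, 7.58, 8.08 and 12.1 CPM in injured Lepr-ctrl nerves and 8.82, 4.58, 3.54, 7.35 and 7.12 CPM in healthy ones. In Lepr-cKO mice, Icam2 measured 4.004, 4.10, 5.18 and 13.6 CPM in injured nerves at 4 wpc and 7.34, 5.16, 5.45, 9.59 and 7.84 CPM in healthy nerves. Both genotypes showed overlapping groups at 4 wpc. Icam2 differed by a log2 fold change of 0.61 ± 0.35 (adjusted p = 0.134) and 0.54 ± 0.38 (0.22) in Lepr-ctrl, and 1.13 ± 0.34 (0.00396) and -0.09 ± 0.38 (0.863) in Lepr-cKO, each pair at 2 and 4 wpc.

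Among the other surface genes, Pecam1, the adhesion protein CD31, rose 2.83-, 2.97- and 3.49-fold in Lepr-ctrl at 2 and 4 wpc and Lepr-cKO at 2 wpc. Eng, a TGF-beta co-receptor, rose 2.45-, 2.74- and 3.78-fold in the same comparisons, the last being at log2 1.30 without the vessel-rich nerve. Both stayed under 2-fold in Lepr-cKO at 4 wpc, at 1.74-fold and 1.91-fold. On the log2 scale Robo4 rose by 1.22 and 1.89 in Lepr-ctrl and by 1.38 and 1.10 in Lepr-cKO. Cdh5 (VE-cadherin), Cd34, Ramp2, a partner of the adrenomedullin receptor, and Vwf, a clotting protein stored in endothelium, exceeded 2-fold only in Lepr-cKO at 2 wpc, at 1.39, 1.08, 1.22 and 1.15. Without the vessel-rich nerve none of the 4 was called there, at 0.98, 0.82, 1.00 and 0.70, and Icam2 was at 0.57 (adjusted p = 0.103). In Lepr-ctrl these 4 lay between 0.58 and 0.90. Exons of Ramp2 share 1103 bases with Vps25 on the same strand, so its count is uncertain. Of the 17 mice with both nerves, the injured nerve was the higher in 17 for Pecam1, Cdh5, Esam, Emcn, Eng, Ramp2 and Egfl7.

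Among the receptors, Aplnr rose 17.5-fold to 25.5-fold while Kdr did not pass the test in any comparison. The 17.5-fold rise, in Lepr-cKO at 4 wpc, was smaller without the outlying nerve, as given below. Tie1, the orphan partner of Tek, and Tek rose in 3 and 2 of the 4 comparisons.

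Aplnr at 2 wpc measured 37.4, 59.2, 64.0, 39.6 and 69.5 CPM in injured Lepr-ctrl nerves and 3.61, 1.43, 2.77, 2.01 and 2.67 CPM in healthy ones. In Lepr-cKO mice, Aplnr measured 38.8, 56.5, 98.7, 201.3 and 40.2 CPM in injured nerves at 2 wpc and 1.34 to 7.44 CPM (median 2.83, 6 nerves) in healthy nerves. No injured nerve approached the healthy range. Aplnr at 4 wpc measured 70.3, 41.9, 28.4 and 43.6 CPM in injured Lepr-ctrl nerves and 2.78, 1.38, 1.57, 1.85 and 1.62 CPM in healthy ones. In Lepr-cKO mice, Aplnr measured 22.4, 20.3, 23.3 and 75.7 CPM in injured nerves at 4 wpc and 1.52, 1.36, 1.57, 2.76 and 2.80 CPM in healthy nerves. The injured nerves lay apart from the healthy ones again, with the outlying nerve far above the other Lepr-cKO nerves. Aplnr differed by a log2 fold change of 4.43 ± 0.47 (adjusted p = 6.54e-10) and 4.64 ± 0.5 (7.47e-10) in Lepr-ctrl, and 4.67 ± 0.44 (3.26e-11) and 4.13 ± 0.49 (1.17e-08) in Lepr-cKO, each pair at 2 and 4 wpc. Its value in Lepr-cKO at 4 wpc was 3.43 without the outlying nerve. Within mice, Aplnr was higher in the injured nerve of 17 of 17.

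Tie1 at 2 wpc measured 91.0, 101.8, 153.5, 78.1 and 107.6 CPM in injured Lepr-ctrl nerves and 36.5, 32.3, 36.5, 36.4 and 31.5 CPM in healthy ones. In Lepr-cKO mice, Tie1 measured 58.2, 98.004, 190.3, 282.0 and 68.2 CPM in injured nerves at 2 wpc and 25.4 to 49.6 CPM (median 35.4, 6 nerves) in healthy nerves. Both genotypes showed separate groups at 2 wpc. Tie1 at 4 wpc measured 131.9, 98.2, 94.5 and 152.3 CPM in injured Lepr-ctrl nerves and 43.3, 27.9, 25.6, 37.2 and 40.7 CPM in healthy ones. In Lepr-cKO mice, Tie1 measured 36.2, 66.0, 73.3 and 173.2 CPM in injured nerves at 4 wpc and 42.3, 33.4, 38.4, 53.3 and 50.7 CPM in healthy nerves. In Lepr-cKO at 4 wpc the lowest injured nerve lay among the healthy ones. Tie1 differed by a log2 fold change of 1.62 ± 0.33 (adjusted p = 5.95e-05) and 1.77 ± 0.34 (3.32e-05) in Lepr-ctrl, and 1.95 ± 0.31 (1.47e-06) and 1.00 ± 0.34 (0.0126) in Lepr-cKO, each pair at 2 and 4 wpc.

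Tek at 2 wpc measured 38.2, 68.8, 71.2, 37.6 and 75.6 CPM in injured Lepr-ctrl nerves and 32.3, 22.3, 38.05, 29.3 and 24.8 CPM in healthy ones. In Lepr-cKO mice, Tek measured 30.5, 53.7, 90.8, 162.8 and 40.8 CPM in injured nerves at 2 wpc and 18.1 to 45.6 CPM (median 28.4, 6 nerves) in healthy nerves. Groups overlapped at 2 wpc in both genotypes. Tek at 4 wpc measured 61.4, 35.6, 31.2 and 66.6 CPM in injured Lepr-ctrl nerves and 24.8, 20.5, 19.97, 23.3 and 25.4 CPM in healthy ones. In Lepr-cKO mice, Tek measured 20.3, 21.1, 28.3 and 69.6 CPM in injured nerves at 4 wpc and 28.8, 22.3, 25.7, 31.1 and 28.0 CPM in healthy nerves. They were apart in Lepr-ctrl and overlapped in Lepr-cKO. Tek differed by a log2 fold change of 0.99 ± 0.34 (adjusted p = 0.0108) and 1.09 ± 0.36 (0.00814) in Lepr-ctrl, and 1.39 ± 0.32 (0.000293) and 0.35 ± 0.36 (0.408) in Lepr-cKO, each pair at 2 and 4 wpc. Without the vessel-rich nerve Tek was at 0.90 in Lepr-cKO at 2 wpc, and in Lepr-ctrl at 4 wpc it was at 0.94 or 0.89 without either of 2 injured nerves, each under 2-fold.

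Kdr, the main signalling receptor for VEGF-A, was the contrast. Kdr at 2 wpc measured 47.9, 53.2, 47.2, 32.6 and 66.0 CPM in injured Lepr-ctrl nerves and 56.2, 52.2, 60.6, 60.3 and 52.1 CPM in healthy ones. In Lepr-cKO mice, Kdr measured 31.1, 50.5, 62.6, 195.7 and 37.7 CPM in injured nerves at 2 wpc and 50.4 to 62.1 CPM (median 53.6, 6 nerves) in healthy nerves. A single injured Lepr-cKO nerve lay well above the rest. Kdr at 4 wpc measured 58.8, 49.7, 46.1 and 55.9 CPM in injured Lepr-ctrl nerves and 53.9, 41.1, 53.2, 58.1 and 54.3 CPM in healthy ones. In Lepr-cKO mice, Kdr measured 36.2, 34.6, 43.0 and 82.5 CPM in injured nerves at 4 wpc and 55.1, 59.2, 61.1, 58.6 and 62.5 CPM in healthy nerves. Injured and healthy values overlapped in both genotypes. Kdr differed by a log2 fold change of -0.19 ± 0.29 (adjusted p = 0.576) and 0.01 ± 0.31 (0.976) in Lepr-ctrl, and 0.46 ± 0.27 (0.141) and -0.28 ± 0.31 (0.459) in Lepr-cKO, each pair at 2 and 4 wpc. Flt1, a VEGF receptor that also acts as a decoy, passed the test only in Lepr-cKO at 2 wpc, at 0.94 ± 0.3 (log2, adjusted p = 0.00641), which is under 2-fold, and at 1.04 without the muscle-carrying nerve.

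Of the 6 ligands, Angpt2 fell in all 4 comparisons. Apln, the ligand of Aplnr, fell in Lepr-ctrl. Vegfa passed in Lepr-cKO at 2 wpc, which rested on 1 nerve.

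Angpt2 at 2 wpc measured 14.8, 13.2, 10.3, 15.3 and 18.6 CPM in injured Lepr-ctrl nerves and 46.1, 72.4, 51.7, 59.6 and 71.5 CPM in healthy ones. In Lepr-cKO mice, Angpt2 measured 18.5, 17.3, 20.9, 14.8 and 20.7 CPM in injured nerves at 2 wpc and 55.7 to 87.9 CPM (median 69.0, 6 nerves) in healthy nerves. Every injured nerve lay below every healthy one. Angpt2 at 4 wpc measured 33.9, 18.04, 15.1 and 16.3 CPM in injured Lepr-ctrl nerves and 63.4, 148.1, 58.2, 48.6 and 88.4 CPM in healthy ones. In Lepr-cKO mice, Angpt2 measured 32.6, 18.1, 22.6 and 19.8 CPM in injured nerves at 4 wpc and 81.1, 59.4, 59.8, 43.1 and 60.0 CPM in healthy nerves. The same separation was seen at 4 wpc. Angpt2 differed by a log2 fold change of -2.06 ± 0.24 (adjusted p = 4.83e-09) and -1.97 ± 0.26 (7.25e-08) in Lepr-ctrl, and -1.97 ± 0.23 (6.4e-09) and -1.38 ± 0.26 (2.74e-05) in Lepr-cKO, each pair at 2 and 4 wpc. Within mice, Angpt2 was lower in the injured nerve of 17 of 17.

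Apln at 2 wpc measured 2.71, 2.64, 1.80, 2.09 and 1.40 CPM in injured Lepr-ctrl nerves and 4.43, 11.2, 2.93, 4.25 and 3.25 CPM in healthy ones. In Lepr-cKO mice, Apln measured 6.62, 2.52, 2.204, 11.96 and 1.67 CPM in injured nerves at 2 wpc and 2.22 to 13.5 CPM (median 4.92, 6 nerves) in healthy nerves. Injured Lepr-ctrl nerves lay below the healthy ones, and the groups overlapped in Lepr-cKO. Apln at 4 wpc measured 1.22, 0.765, 1.89 and 1.41 CPM in injured Lepr-ctrl nerves and 12.2, 2.63, 0.806, 7.73 and 2.23 CPM in healthy ones. In Lepr-cKO mice, Apln measured 1.43, 1.04, 1.78 and 1.89 CPM in injured nerves at 4 wpc and 2.38, 3.48, 2.22, 2.55 and 4.71 CPM in healthy nerves. Healthy Lepr-ctrl nerves spread widely and reached into the injured range, and in Lepr-cKO the groups were apart. Apln differed by a log2 fold change of -1.29 ± 0.54 (adjusted p = 0.0362) and -1.95 ± 0.63 (0.00737) in Lepr-ctrl, and -0.25 ± 0.5 (0.68) and -1.01 ± 0.6 (0.152) in Lepr-cKO, each pair at 2 and 4 wpc. In Lepr-ctrl at 2 wpc the call of Apln was lost without any of 4 nerves, with values of -0.79 to -1.27.

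Vegfa at 2 wpc measured 20.01, 8.05, 12.4, 13.7 and 18.1 CPM in injured Lepr-ctrl nerves and 10.6, 12.7, 8.77, 10.1 and 9.88 CPM in healthy ones. In Lepr-cKO mice, Vegfa measured 10.5, 85.5, 8.63, 16.8 and 9.67 CPM in injured nerves at 2 wpc and 9.69 to 14.04 CPM (median 11.3, 6 nerves) in healthy nerves. The muscle-carrying nerve stood far above all others. Vegfa at 4 wpc measured 7.92, 11.1, 10.9 and 9.57 CPM in injured Lepr-ctrl nerves and 14.7, 12.1, 10.3, 12.2 and 9.71 CPM in healthy ones. In Lepr-cKO mice, Vegfa measured 11.3, 17.8, 17.6 and 13.0 CPM in injured nerves at 4 wpc and 12.6, 15.2, 14.01, 12.7 and 14.6 CPM in healthy nerves. Groups overlapped at 4 wpc. Vegfa differed by a log2 fold change of 0.47 ± 0.37 (adjusted p = 0.268) and -0.25 ± 0.4 (0.595) in Lepr-ctrl, and 1.19 ± 0.35 (0.00356) and 0.11 ± 0.39 (0.828) in Lepr-cKO, each pair at 2 and 4 wpc. Without the muscle-carrying nerve, the log2 fold change of Vegfa in Lepr-cKO at 2 wpc was 0.00 ± 0.19 (adjusted p = 0.991).

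Dll4, a Notch ligand of sprouting and arterial endothelium, was the contrast. Dll4 at 2 wpc measured 12.5, 10.7, 13.8, 9.78 and 15.2 CPM in injured Lepr-ctrl nerves and 10.4, 9.08, 11.1, 10.2 and 18.2 CPM in healthy ones. In Lepr-cKO mice, Dll4 measured 6.65, 11.3, 10.4, 33.3 and 16.96 CPM in injured nerves at 2 wpc and 10.2 to 23.1 CPM (median 13.3, 6 nerves) in healthy nerves. Injured and healthy nerves overlapped. Dll4 at 4 wpc measured 22.8, 14.5, 12.8 and 15.9 CPM in injured Lepr-ctrl nerves and 10.6, 13.5, 12.8, 11.1 and 12.4 CPM in healthy ones. In Lepr-cKO mice, Dll4 measured 4.44, 8.37, 14.1 and 18.5 CPM in injured nerves at 4 wpc and 11.9, 12.9, 12.5, 16.9 and 13.1 CPM in healthy nerves. They overlapped at 4 wpc as well. Dll4 differed by a log2 fold change of 0.07 ± 0.31 (adjusted p = 0.845) and 0.45 ± 0.33 (0.234) in Lepr-ctrl, and 0.06 ± 0.29 (0.856) and -0.25 ± 0.33 (0.526) in Lepr-cKO, each pair at 2 and 4 wpc. Angpt1, the agonist of Tek, did not pass in any comparison, with values from -0.50 to 0.65, and shares 737 exonic bases with a gene on the other strand. Pgf, a VEGF-family ligand of Flt1, passed only in Lepr-cKO at 4 wpc, at 0.65 ± 0.26 (adjusted p = 0.036), under 2-fold.

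Of the 5 endothelial transcription factors, 3 rose in Lepr-ctrl at 2 wpc (19.8% of all genes) and at 4 wpc (20.1%), 5 in Lepr-cKO at 2 wpc (20.9%) and 3 at 4 wpc (16.8%), and none fell. Tal1, a bHLH factor of blood and endothelial lineages, Sox17, an arterial factor, and Sox18, a factor of vascular and lymphatic endothelium, were called higher in all 4 comparisons. Without the outlying nerve, Tal1 alone was called in Lepr-cKO at 4 wpc, at 1.52 (log2, adjusted p = 0.0015), and Sox17 was at 0.57 (0.174) and Sox18 at 0.81 (0.133). The call of Sox18 there was also lost without either of 2 healthy nerves, at 0.98 and 0.96.

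Tal1 at 2 wpc measured 12.4, 16.9, 37.7, 11.4 and 20.9 CPM in injured Lepr-ctrl nerves and 3.37, 5.98, 5.30, 3.96 and 4.81 CPM in healthy ones. In Lepr-cKO mice, Tal1 measured 11.4, 9.18, 25.2, 48.0 and 15.7 CPM in injured nerves at 2 wpc and 2.41 to 6.40 CPM (median 4.02, 6 nerves) in healthy nerves. Injured nerves were all above the healthy ones. Tal1 at 4 wpc measured 27.9, 21.03, 16.9 and 28.7 CPM in injured Lepr-ctrl nerves and 3.85, 3.71, 3.85, 3.90 and 4.08 CPM in healthy ones. In Lepr-cKO mice, Tal1 measured 6.13, 16.4, 13.1 and 36.4 CPM in injured nerves at 4 wpc and 2.97, 3.33, 3.72, 4.84 and 5.66 CPM in healthy nerves. The groups stayed apart in both genotypes. Tal1 differed by a log2 fold change of 2.08 ± 0.38 (adjusted p = 1.62e-05) and 2.60 ± 0.41 (1.2e-06) in Lepr-ctrl, and 2.41 ± 0.36 (5.78e-07) and 2.12 ± 0.4 (3.59e-05) in Lepr-cKO, each pair at 2 and 4 wpc. Within mice, the injured nerve was the higher in 17 of 17.

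Sox18 at 2 wpc measured 58.6, 36.8, 34.9, 29.8 and 54.2 CPM in injured Lepr-ctrl nerves and 12.01, 22.4, 9.91, 12.5 and 14.6 CPM in healthy ones. In Lepr-cKO mice, Sox18 measured 21.7, 30.8, 52.7, 189.3 and 30.6 CPM in injured nerves at 2 wpc and 9.51 to 23.8 CPM (median 12.3, 6 nerves) in healthy nerves. Groups were apart in Lepr-ctrl and overlapped in Lepr-cKO. Sox18 at 4 wpc measured 69.1, 52.2, 44.1 and 42.3 CPM in injured Lepr-ctrl nerves and 22.8, 9.42, 8.73, 15.7 and 11.7 CPM in healthy ones. In Lepr-cKO mice, Sox18 measured 30.2, 28.5, 35.98 and 56.2 CPM in injured nerves at 4 wpc and 19.6, 13.6, 12.2, 23.2 and 20.9 CPM in healthy nerves. At 4 wpc the injured nerves of both genotypes lay above the healthy ones. Sox18 differed by a log2 fold change of 1.58 ± 0.41 (adjusted p = 0.000964) and 1.92 ± 0.43 (0.000205) in Lepr-ctrl, and 2.10 ± 0.38 (1.45e-05) and 1.07 ± 0.42 (0.0299) in Lepr-cKO, each pair at 2 and 4 wpc. Its value in Lepr-cKO at 2 wpc was 1.16 without the vessel-rich nerve, which is still over 2-fold.

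Sox17 at 2 wpc measured 97.9, 92.0, 200.5, 79.3 and 98.3 CPM in injured Lepr-ctrl nerves and 40.1, 40.1, 47.1, 42.2 and 35.6 CPM in healthy ones. In Lepr-cKO mice, Sox17 measured 55.7, 47.1, 161.3, 196.8 and 81.2 CPM in injured nerves at 2 wpc and 30.6 to 43.4 CPM (median 37.4, 6 nerves) in healthy nerves. No overlap was seen at 2 wpc. Sox17 at 4 wpc measured 168.2, 123.7, 139.3 and 224.6 CPM in injured Lepr-ctrl nerves and 50.4, 28.2, 31.3, 35.5 and 39.4 CPM in healthy ones. In Lepr-cKO mice, Sox17 measured 25.8, 77.9, 99.6 and 224.8 CPM in injured nerves at 4 wpc and 42.1, 33.0, 39.4, 57.1 and 54.9 CPM in healthy nerves. At 4 wpc 1 injured Lepr-cKO nerve lay below the healthy ones and the outlying nerve stood highest. Sox17 differed by a log2 fold change of 1.47 ± 0.36 (adjusted p = 0.000538) and 2.15 ± 0.38 (7.76e-06) in Lepr-ctrl, and 1.53 ± 0.34 (0.000167) and 1.24 ± 0.37 (0.00497) in Lepr-cKO, each pair at 2 and 4 wpc. Sox17 shares 804 exonic bases with an overlapping gene.

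Erg, an ETS factor that keeps endothelial identity, was the contrast. Erg at 2 wpc measured 17.7, 25.0, 30.2, 14.3 and 25.6 CPM in injured Lepr-ctrl nerves and 15.3, 15.4, 17.1, 18.3 and 15.2 CPM in healthy ones. In Lepr-cKO mice, Erg measured 13.8, 20.6, 38.8, 75.7 and 20.8 CPM in injured nerves at 2 wpc and 14.05 to 21.9 CPM (median 15.6, 6 nerves) in healthy nerves. Healthy and injured values overlapped in both genotypes. Erg at 4 wpc measured 32.9, 19.8, 18.4 and 37.4 CPM in injured Lepr-ctrl nerves and 17.1, 14.001, 8.51, 14.1 and 16.6 CPM in healthy ones. In Lepr-cKO mice, Erg measured 9.62, 16.4, 15.6 and 40.4 CPM in injured nerves at 4 wpc and 19.2, 14.8, 14.3, 19.001 and 18.98 CPM in healthy nerves. In Lepr-ctrl the groups were apart and in Lepr-cKO they overlapped. Erg differed by a log2 fold change of 0.47 ± 0.32 (adjusted p = 0.202) and 0.94 ± 0.34 (0.0172) in Lepr-ctrl, and 1.01 ± 0.31 (0.00472) and 0.24 ± 0.34 (0.571) in Lepr-cKO, each pair at 2 and 4 wpc. Sox7, the third related SOX factor, passed both cut-offs only in Lepr-cKO at 2 wpc, at 1.44 ± 0.34 (adjusted p = 0.000376). Without the vessel-rich nerve Erg was at 0.48 (adjusted p = 0.127) and Sox7 at 0.83 (0.0151) in that comparison. The call of Erg there was also lost, at 0.98, without any of 3 healthy nerves or 1 further injured nerve.

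The barrier and transport genes split. Plvap rose and Mfsd2a fell in all 4 comparisons, while the junction genes and efflux transporters mostly stayed within 2-fold.

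Plvap at 2 wpc measured 47.4, 78.4, 69.3, 46.6 and 79.996 CPM in injured Lepr-ctrl nerves and 3.03, 2.05, 1.14, 0.827 and 1.38 CPM in healthy ones. In Lepr-cKO mice, Plvap measured 26.7, 175.5, 128.2, 194.4 and 68.1 CPM in injured nerves at 2 wpc and 0.874 to 27.2 CPM (median 3.94, 6 nerves) in healthy nerves. In Lepr-ctrl the groups were apart, and in Lepr-cKO the highest healthy nerve reached into the injured range. Plvap at 4 wpc measured 84.9, 52.5, 26.3 and 41.4 CPM in injured Lepr-ctrl nerves and 2.97, 1.33, 0.716, 1.11 and 1.07 CPM in healthy ones. In Lepr-cKO mice, Plvap measured 63.0, 17.02, 29.6 and 69.2 CPM in injured nerves at 4 wpc and 1.44, 4.43, 2.30, 2.29 and 5.19 CPM in healthy nerves. Injured and healthy nerves were apart at 4 wpc. Plvap differed by a log2 fold change of 5.26 ± 0.72 (adjusted p = 9.74e-08) and 5.15 ± 0.74 (2.56e-07) in Lepr-ctrl, and 3.72 ± 0.6 (1.9e-06) and 3.81 ± 0.68 (1.63e-05) in Lepr-cKO, each pair at 2 and 4 wpc. As a share of the summed level of 6 endothelial genes (Pecam1, Cdh5, Tie1, Esam, Erg and Emcn), Plvap stood at 0.314% to 1.07% in healthy and 8.47% to 9.65% in injured Lepr-ctrl nerves at 2 wpc, and at 0.375% to 0.897% and 4.73% to 9.06% at 4 wpc. In Lepr-cKO the share was 0.333% to 6.74% in healthy and 6.69% to 23.9% in injured nerves at 2 wpc, where the groups overlapped, and 0.471% to 1.83% and 4.57% to 17.9% at 4 wpc.

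Mfsd2a at 2 wpc measured 60.9, 82.9, 78.9, 65.4 and 74.6 CPM in injured Lepr-ctrl nerves and 167.5, 167.7, 164.5, 182.3 and 218.2 CPM in healthy ones. In Lepr-cKO mice, Mfsd2a measured 49.1, 32.9, 80.8, 124.0 and 56.4 CPM in injured nerves at 2 wpc and 165.7 to 219.7 CPM (median 190.7, 6 nerves) in healthy nerves. All injured nerves lay below all healthy ones. Mfsd2a at 4 wpc measured 66.96, 53.3, 50.6 and 85.0 CPM in injured Lepr-ctrl nerves and 187.4, 206.2, 163.9, 169.8 and 204.5 CPM in healthy ones. In Lepr-cKO mice, Mfsd2a measured 41.2, 62.2, 81.4 and 66.6 CPM in injured nerves at 4 wpc and 182.7, 171.5, 177.3, 162.5 and 194.3 CPM in healthy nerves. The separation was the same at 4 wpc. Mfsd2a differed by a log2 fold change of -1.31 ± 0.21 (adjusted p = 1.31e-06) and -1.54 ± 0.23 (3.56e-07) in Lepr-ctrl, and -1.49 ± 0.2 (8.09e-08) and -1.50 ± 0.22 (9.69e-07) in Lepr-cKO, each pair at 2 and 4 wpc. Within mice, Mfsd2a was lower in the injured nerve of 17 of 17.

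Ocln, a tight junction protein, passed both cut-offs only in Lepr-ctrl at 4 wpc. Ocln at 2 wpc measured 4.57, 9.34, 2.52, 5.24 and 11.9 CPM in injured Lepr-ctrl nerves and 7.34, 2.201, 4.23, 3.54 and 2.54 CPM in healthy ones. In Lepr-cKO mice, Ocln measured 2.88, 8.99, 5.51, 8.53 and 2.92 CPM in injured nerves at 2 wpc and 1.77 to 8.69 CPM (median 4.01, 6 nerves) in healthy nerves. The groups overlapped at this time. Ocln at 4 wpc measured 4.18, 4.27, 6.18 and 5.54 CPM in injured Lepr-ctrl nerves and 2.56, 1.83, 2.33, 1.85 and 2.46 CPM in healthy ones. In Lepr-cKO mice, Ocln measured 6.17, 6.35, 5.63 and 7.37 CPM in injured nerves at 4 wpc and 3.75, 2.60, 3.23, 4.53 and 4.52 CPM in healthy nerves. Injured nerves lay above healthy ones in both genotypes at 4 wpc. Ocln differed by a log2 fold change of 0.76 ± 0.38 (adjusted p = 0.0797) and 1.19 ± 0.42 (0.0129) in Lepr-ctrl, and 0.44 ± 0.36 (0.292) and 0.77 ± 0.41 (0.104) in Lepr-cKO, each pair at 2 and 4 wpc.

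Abcb1a, the efflux pump P-glycoprotein, was the contrast. Abcb1a at 2 wpc measured 64.8, 156.7, 107.5, 80.4 and 135.6 CPM in injured Lepr-ctrl nerves and 98.001, 74.7, 112.6, 106.9 and 84.6 CPM in healthy ones. In Lepr-cKO mice, Abcb1a measured 51.9, 65.5, 161.4, 248.0 and 88.1 CPM in injured nerves at 2 wpc and 67.1 to 123.1 CPM (median 88.5, 6 nerves) in healthy nerves. Values overlapped in both genotypes. Abcb1a at 4 wpc measured 156.7, 79.4, 91.8 and 140.3 CPM in injured Lepr-ctrl nerves and 67.7, 78.4, 77.5, 73.0 and 90.3 CPM in healthy ones. In Lepr-cKO mice, Abcb1a measured 51.5, 70.4, 74.4 and 142.9 CPM in injured nerves at 4 wpc and 96.9, 77.2, 80.7, 88.9 and 91.7 CPM in healthy nerves. Overlap was seen at 4 wpc too. Abcb1a differed by a log2 fold change of 0.19 ± 0.29 (adjusted p = 0.574) and 0.60 ± 0.31 (0.091) in Lepr-ctrl, and 0.45 ± 0.28 (0.15) and -0.04 ± 0.31 (0.921) in Lepr-cKO, each pair at 2 and 4 wpc. Abcb1a has a near copy, Abcb1b, and an overlapping gene, so its count is uncertain.

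Of the remaining barrier genes, Cldn5, the main claudin of barrier endothelium, passed both cut-offs only in Lepr-ctrl at 4 wpc, at 1.10 ± 0.31 (adjusted p = 0.00263), and was at 0.98 without 1 healthy nerve. Tjp1 (ZO-1), a scaffold of tight junctions in many cell types, was lower by less than 2-fold, at -0.43 in Lepr-ctrl at both times and -0.45 in Lepr-cKO at 4 wpc. Slco1a4, an organic anion transporter with close paralogs, did not pass, with values from -0.36 to 0.90.

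**Figure D2:**
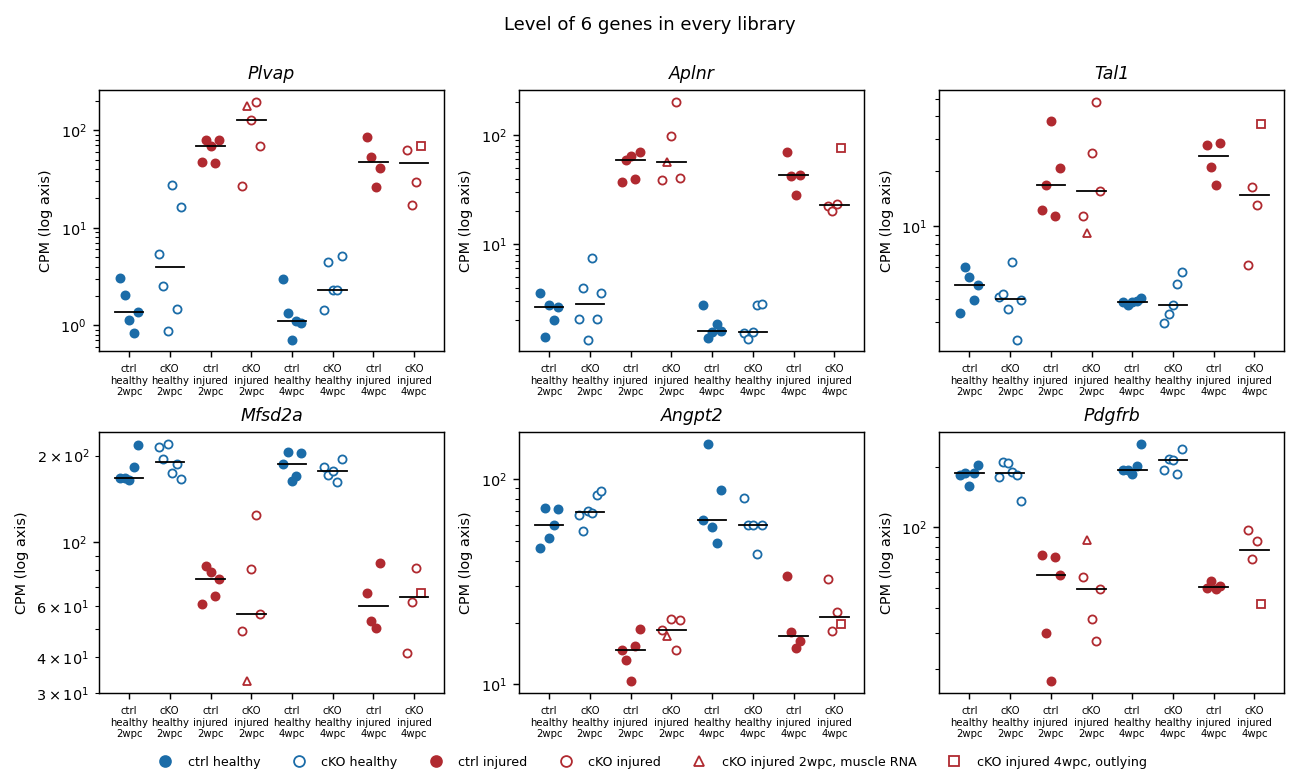
CPM (y axis, log scale) of Plvap, Aplnr, Tal1, Mfsd2a, Angpt2 and Pdgfrb in each of the 39 libraries (points), by group (x axis). Black lines are medians, and a triangle and a square mark the muscle-carrying and the outlying nerve. Apart from 1 healthy Lepr-cKO nerve in the Plvap panel, injured and healthy groups of the same genotype and time are apart in all 6 panels.

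Of the 4 pericyte genes, 3 fell in Lepr-ctrl at 2 wpc (14.3% of all genes) and at 4 wpc (15.9%), 1 in Lepr-cKO at 2 wpc (13.4%) and 3 at 4 wpc (10.8%). Pdgfrb, the PDGF-B receptor of pericytes that fibroblasts also carry, fell in all 4 comparisons. Rgs5, a G-protein regulator, and Abcc9, a potassium channel subunit, are the more restricted pericyte genes.

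Pdgfrb at 2 wpc measured 72.9, 30.1, 17.3, 71.0 and 58.2 CPM in injured Lepr-ctrl nerves and 182.0, 186.8, 159.7, 185.9 and 203.4 CPM in healthy ones. In Lepr-cKO mice, Pdgfrb measured 56.7, 86.7, 35.1, 27.4 and 49.6 CPM in injured nerves at 2 wpc and 134.8 to 210.7 CPM (median 185.7, 6 nerves) in healthy nerves. Every injured nerve lay under every healthy one. Pdgfrb at 4 wpc measured 50.3, 54.2, 49.6 and 51.4 CPM in injured Lepr-ctrl nerves and 193.6, 191.6, 184.7, 201.2 and 259.1 CPM in healthy ones. In Lepr-cKO mice, Pdgfrb measured 96.6, 69.8, 85.6 and 42.0 CPM in injured nerves at 4 wpc and 191.8, 218.6, 216.1, 183.0 and 244.7 CPM in healthy nerves. The outlying nerve was the lowest injured Lepr-cKO nerve, and the groups were apart. Pdgfrb differed by a log2 fold change of -1.88 ± 0.27 (adjusted p = 2.31e-07) and -2.00 ± 0.29 (3.86e-07) in Lepr-ctrl, and -1.85 ± 0.26 (1.83e-07) and -1.52 ± 0.29 (3.48e-05) in Lepr-cKO, each pair at 2 and 4 wpc.

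Abcc9 at 2 wpc measured 3.54, 3.51, 0.0949, 2.27 and 3.89 CPM in injured Lepr-ctrl nerves and 18.2, 15.3, 24.1, 20.8 and 15.5 CPM in healthy ones. In Lepr-cKO mice, Abcc9 measured 2.74, 63.0, 1.84, 1.71 and 5.49 CPM in injured nerves at 2 wpc and 10.7 to 19.4 CPM (median 17.7, 6 nerves) in healthy nerves. In Lepr-ctrl the groups were apart, and the muscle-carrying nerve was far above the other injured Lepr-cKO nerves. Abcc9 at 4 wpc measured 2.53, 3.19, 1.39 and 0.751 CPM in injured Lepr-ctrl nerves and 20.2, 14.8, 15.4, 14.5 and 20.5 CPM in healthy ones. In Lepr-cKO mice, Abcc9 measured 5.73, 0.930, 3.86 and 0.456 CPM in injured nerves at 4 wpc and 17.2, 20.8, 25.8, 18.96 and 23.2 CPM in healthy nerves. Healthy and injured nerves were apart at 4 wpc. Abcc9 differed by a log2 fold change of -2.80 ± 0.7 (adjusted p = 0.000724) and -3.10 ± 0.81 (0.00122) in Lepr-ctrl, and -0.12 ± 0.61 (0.877) and -2.90 ± 0.77 (0.00177) in Lepr-cKO, each pair at 2 and 4 wpc. Without the muscle-carrying nerve, Abcc9 in Lepr-cKO at 2 wpc was -2.44 ± 0.47 (log2, adjusted p = 3e-05). Skeletal muscle is known to express Abcc9, and the part of muscle RNA in this value was not tested further.

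Rgs5 at 2 wpc measured 55.2, 72.6, 16.04, 58.0 and 117.9 CPM in injured Lepr-ctrl nerves and 222.0, 156.3, 207.7, 243.9 and 136.3 CPM in healthy ones. In Lepr-cKO mice, Rgs5 measured 65.2, 221.1, 60.9, 75.5 and 57.7 CPM in injured nerves at 2 wpc and 112.4 to 237.1 CPM (median 205.5, 6 nerves) in healthy nerves. The muscle-carrying nerve was the only injured nerve within the healthy range. Rgs5 at 4 wpc measured 30.7, 34.7, 25.3 and 27.3 CPM in injured Lepr-ctrl nerves and 174.5, 106.7, 109.4, 107.8 and 174.9 CPM in healthy ones. In Lepr-cKO mice, Rgs5 measured 85.4, 22.1, 41.5 and 36.97 CPM in injured nerves at 4 wpc and 188.8, 133.0, 169.2, 159.3 and 174.9 CPM in healthy nerves. The groups did not overlap at 4 wpc. Rgs5 differed by a log2 fold change of -1.59 ± 0.37 (adjusted p = 0.000304) and -2.19 ± 0.41 (2.16e-05) in Lepr-ctrl, and -0.92 ± 0.35 (0.0209) and -1.82 ± 0.4 (0.000249) in Lepr-cKO, each pair at 2 and 4 wpc. Without the muscle-carrying nerve the value in Lepr-cKO at 2 wpc was -1.47 ± 0.33 (adjusted p = 0.000196).

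Cspg4, the proteoglycan NG2 of pericytes, which other nerve cells also make, was the contrast. Cspg4 at 2 wpc measured 103.2, 101.6, 16.6, 93.2 and 144.6 CPM in injured Lepr-ctrl nerves and 108.9, 88.3, 68.8, 69.3 and 68.4 CPM in healthy ones. In Lepr-cKO mice, Cspg4 measured 68.4, 164.5, 39.7, 37.5 and 60.9 CPM in injured nerves at 2 wpc and 57.7 to 128.5 CPM (median 74.5, 6 nerves) in healthy nerves. Injured and healthy nerves overlapped. Cspg4 at 4 wpc measured 51.0, 79.0, 94.5 and 48.2 CPM in injured Lepr-ctrl nerves and 78.1, 66.0, 61.2, 95.1 and 89.1 CPM in healthy ones. In Lepr-cKO mice, Cspg4 measured 149.2, 136.3, 116.8 and 44.4 CPM in injured nerves at 4 wpc and 68.2, 87.0, 73.9, 97.7 and 123.9 CPM in healthy nerves. Overlap was seen again at 4 wpc. Cspg4 differed by a log2 fold change of 0.19 ± 0.37 (adjusted p = 0.671) and -0.19 ± 0.39 (0.689) in Lepr-ctrl, and -0.12 ± 0.35 (0.777) and 0.31 ± 0.39 (0.516) in Lepr-cKO, each pair at 2 and 4 wpc.

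Set side by side, the summed level of the 4 pericyte genes over that of the 6 endothelial genes was 1.56 to 1.97 in healthy and 0.0611 to 0.46 in injured Lepr-ctrl nerves at 2 wpc. At 4 wpc it was 1.41 to 2.01 and 0.143 to 0.318. In Lepr-cKO the ratio was 1.32 to 1.88 in healthy and 0.0779 to 0.728 in injured nerves at 2 wpc, and 1.39 to 1.9 and 0.129 to 0.959 at 4 wpc. The injured and healthy ratios did not overlap in any of the 4 settings. These sums describe the chosen genes and carry no test.

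**Figure D3:**
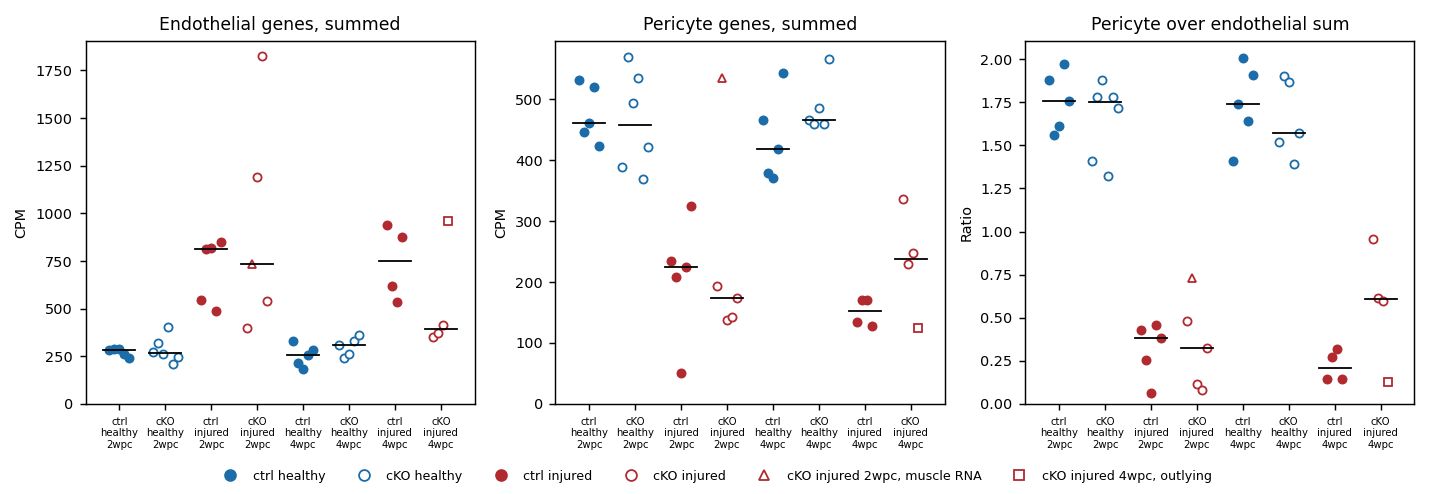
Summed CPM of 6 endothelial genes (left) and of 4 pericyte genes (middle), and their ratio (right), in each library (points) by group (x axis), with medians as lines and the muscle-carrying and the outlying nerve marked. In the right panel the injured nerves lie at 0.0611 to 0.959 and the healthy ones at 1.32 to 2.01.

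Per kilobase of exon, the members differed widely in healthy nerves. Cldn5 was the highest at 100.1 ± 27.7 CPM per kb (SD, n = 21), followed by Mfsd2a at 82.0 ± 8.39, and these overlap within their spread. Rgs5 at 37.2 ± 9.77, Pdgfrb at 35.7 ± 4.83 and Tjp1 at 33.9 ± 4.04 came next and did not differ beyond their spread. Aplnr at 0.672 ± 0.377 and Angpt1 at 0.338 ± 0.123 were the lowest.

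The second question was whether loss of Lepr in Schwann cells altered these genes. No member differed between genotypes after adjustment, in healthy or injured nerves. In injured nerves at 2 wpc, 0 of 38 were called, against 0.569% of all genes called higher and 0% called lower, and the smallest adjusted p was 0.119 (Abcc9, log2 difference 2.48). Without the muscle-carrying nerve Abcc9 was at 0.14 (adjusted p = 0.983), and 0.00544% of all genes were called higher. With that nerve kept and 1 of 3 others of its group left out, Abcc9 was called, at 2.76 to 2.79. At 4 wpc 0 of 38 were called, against 0.363% higher and 0.0868% lower, with a smallest adjusted p of 0.121 (Angpt1). In healthy nerves, 0 of 38 were called at either time, against 0.00542% of genes called higher and 0% lower, and each smallest adjusted p was 1. At an unadjusted p under 0.05, 5 members differed in injured nerves at 2 wpc (6.44% of all genes) and 1 at 4 wpc (19.9% of all genes). DESeq2 also called 0 in each of these comparisons. With 4 to 6 nerves a group, a missing call does not show equal levels.

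In injured nerves at 2 wpc the median log2 difference of the members (Lepr-cKO minus Lepr-ctrl) was 0.38, with 31 above 0, and at 4 wpc it was -0.37, with 27 below 0. Over all genes tested the medians were 0.005 and 0.031, with 51.2% above 0 at 2 wpc and 46.3% below 0 at 4 wpc. The shift at 2 wpc was not seen in the group medians of the summed 6 endothelial genes. These were 735.4 CPM in injured Lepr-cKO nerves (398.7 to 1824, the highest being the vessel-rich nerve) and 812.5 CPM in injured Lepr-ctrl nerves (487.7 to 851). Without the outlying nerve, 6 members were lower in Lepr-cKO at 4 wpc, and 1.85% of all genes were called lower in that fit. These were Egfl7 (log2 difference -1.32, adjusted p = 0.0466), Sox17 (-1.28, 0.0275), Pecam1 (-1.13, 0.0293), Esam (-1.12, 0.0241), Robo4 (-1.09, 0.0487) and Tie1 (-1.04, 0.0487). Injured Lepr-cKO nerves at 4 wpc had 2.95% to 20.2% mitochondrial counts against 17.2% to 21.6% in injured Lepr-ctrl nerves, and the outlying nerve was the one at 20.2%. Their 10 myelin genes summed to 58240 ± 20660 CPM (SD, n = 4) against 31420 ± 4471 (n = 4). The part of these differences in the result was not tested.

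**Figure D4:**
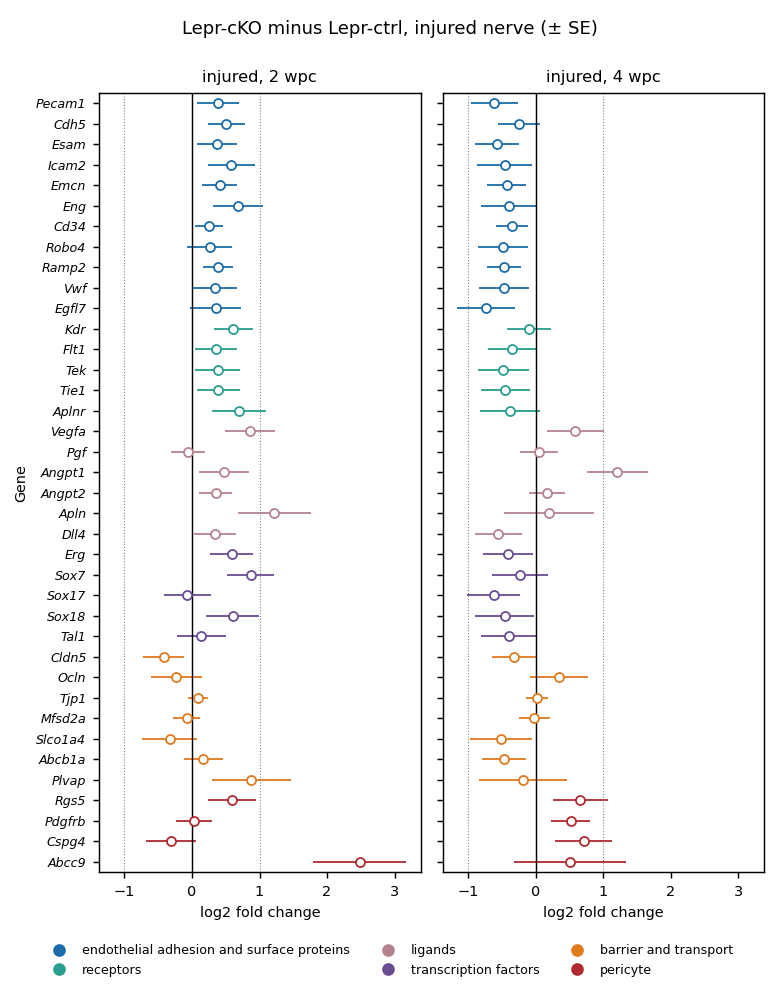
Log2 difference of Lepr-cKO over Lepr-ctrl in injured nerves (x axis, ± SE) for the 38 genes (y axis, coloured by role) at 2 wpc (left) and 4 wpc (right). Open circles mark genes that did not pass both cut-offs, which is the case for all 38 in both panels. Most points lie right of 0 at 2 wpc and left of 0 at 4 wpc. The Lepr-cKO groups include the vessel-rich nerve at 2 wpc and the outlying nerve at 4 wpc.

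The third question was whether the crush response differed between genotypes or over time. For genotype by injury, 0 of 38 were called at either time, against 0% of all genes in each direction, with smallest adjusted p of 0.831 (Abcc9) at 2 wpc and 0.48 (Emcn) at 4 wpc. Between 2 and 4 wpc, the crush response of 0 of 38 genes changed in Lepr-ctrl, against 1.61% of all genes higher and 2.81% lower. In Lepr-cKO it changed in 0 of 38, against 0.949% higher and 0.466% lower, with a smallest adjusted p of 0.127 (Abcc9). Without the outlying nerve, Emcn, Icam2 and Pecam1 were called lower at 4 wpc in Lepr-cKO, where 0.405% of all genes were. Cdh5 was called lower (log2 -1.36, adjusted p = 0.0338) without another injured Lepr-cKO nerve, from 2 wpc, where 0.908% of all genes were.

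Other genes of the same pathways were read from lists of genes known for each role. Here and in all later lists, values come only from the fit of all libraries. Whether their Lepr-cKO counts hold without the muscle-carrying, the outlying or the vessel-rich nerve was not tested. Their counts stand against the shares of all genes given above, 19.8%, 20.1%, 20.9% and 16.8% higher and 14.3%, 15.9%, 13.4% and 10.8% lower in Lepr-ctrl at 2 and 4 wpc and Lepr-cKO at 2 and 4 wpc. In the VEGF list, 1 of 6 rose in each comparison except Lepr-ctrl at 4 wpc, where 2 rose, and 1 fell throughout. Nrp1, a VEGF and semaphorin co-receptor, was the one that rose throughout, by 1.18, 1.22, 1.46 and 1.10 on the log2 scale in Lepr-ctrl at 2 and 4 wpc and Lepr-cKO at 2 and 4 wpc, and Vegfc, a lymphatic growth factor, fell by 1.91, 2.38, 1.02 and 2.23. In the Notch list, 4, 3, 4 and 3 of 9 rose in that order and 1, 2, 1 and 2 fell. Jag1 and Lfng, a ligand and a modifier of Notch, rose throughout, and Hey2, a Notch target, was lower throughout at -1.69, -2.18, -1.33 and -2.08. In the angiopoietin list 1, 2, 2 and 1 of 5 rose and at most 1 fell.

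All 4 genes for leukocyte adhesion (Icam1, Vcam1, Sele and Selp) rose in every comparison, Selp by 6.62, 7.75, 5.79 and 4.63 on the log2 scale in the order just given. Selp and Sele started near 0, so the size of their fold changes is uncertain. Over the 8 groups, mean levels ran from 0.0633 to 46.6 CPM for Selp and from 0.0383 to 35.6 CPM for Sele. In 2 groups no library had more than 3 counts of Sele. Of 12 further pan-endothelial genes, 7, 7, 9 and 6 rose and none fell past 2-fold, with Clec14a at 2.82, 2.61, 3.25 and 1.56 and Nos3 at 2.64, 2.23, 3.12 and 1.48. Of 11 further pericyte genes tested, 2, 3, 2 and 4 rose and 7, 4, 4 and 5 fell. Kcnj8, the channel partner of Abcc9, was at -3.97, -4.51, -2.82 and -2.97, and Higd1b and Notch3 were also lower throughout. Anpep, which pericytes share with other cells, rose throughout.

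Among 12 genes of the hypoxia response, 2, 4, 3 and 3 rose and 3, 2, 2 and 2 fell. Of the 11 tested genes of the Wnt-Norrin pathway that induces barrier properties, 1, 1, 3 and 1 rose and 2, 2, 2 and 1 fell, Lef1 rising throughout. Of 9 further junction genes, 2, 4, 3 and 2 rose and 3, 3, 3 and 2 fell, F11r and Ildr2 rising and Cldn12 falling throughout. Of 12 transporter and transcytosis genes, 0, 2, 0 and 0 rose and 4, 3, 3 and 2 fell, with Slc7a5 at -2.40, -1.49, -2.74 and -1.58.

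Markers of other cell types moved with the crush. Of 8 macrophage genes, 6, 8, 6 and 8 rose and none fell. Their summed level in Lepr-ctrl at 2 wpc went from 118.5 to 211.9 CPM in healthy nerves to 1031 to 3053 CPM in injured ones, with Lyz2 the most abundant. Of 8 genes of repair Schwann cells, 7, 4, 7 and 6 rose, and of 10 myelin genes 0 rose and 7, 8, 8 and 4 fell. Of 6 proliferation genes, 6, 2, 6 and 6 rose. The part of these cell types in the vessel gene results was not tested.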

How the data were processed

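Per the labels and the study's methods, the authors sequenced single reads of 50 bases from unstranded libraries of stripped sciatic endoneurium, aligned them with STAR 2.5 to GRCm38 (2 mismatches allowed) and made the deposited raw counts per gene with featureCounts 1.5.0-p1, after demultiplexing with bcl2fastq 2.20.0.422. Strand and multimapping settings of the counting are not given in the sources used here. Gene names came from GENCODE M21.

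All 39 libraries entered 1 model in edgeR 4.0.16 (R 4.3.3) with 8 group means, TMM scaling and filterByExpr (minimum count 10, minimum total 15). Comparisons used the quasi-likelihood F test with Benjamini-Hochberg adjustment over 18442 genes. A gene was called at an adjusted p under 0.05 and a change over 2-fold, and is said to pass at the adjusted p alone. SE is the absolute log2 fold change over the square root of F. The script was tested on simulated data. CPM and per-kilobase levels use TMM factors and GENCODE exon lengths. Promoters came from RefSeq (GRCm38.p6).

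The members, lists and tests were chosen with earlier results of these data known. Values by library (a range and median for the group of 6) are given for up to 3 members of each role called in the most crush comparisons and 1 called in the fewest, and other lists name up to 3 genes by the same order. Replicates are separate mice. The study's methods state fewer mice for some groups than the labels give and do not name them, so all libraries were used. Injured and healthy nerves with the same animal number came from 1 mouse, and their deviations from the group means correlated between -0.116 and 0.567 over 5000 genes, above 0.1 in 14 of 17 mice. No 2 libraries agreed within sampling noise. Alternatives were DESeq2 1.42.0, its size factors in edgeR, leaving out mitochondrial genes, other filters, the adjusted p alone, a sex term, only the groups compared, the animal as a replicate block, and leaving out each library. A joint leave-out of the muscle-carrying and the outlying nerve was added after seeing the data. Healthy nerves of the 2 time points, from separate mice, were compared in the same model but are not reported here. Single genes of some lists are not reported here.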

Additional observations from a re-analysis of the deposited data

Results flagged for a closer look

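In each group of 4 to 6 nerves, the highest or lowest value of each member was set against the rest by Dixon's test at the 95% level. Of 304 tests, 21 were past the limit (6.91%), where chance gives about 1 in 20, or 15.2 here. Values are CPM.

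An injured Lepr-cKO nerve at 4 wpc, the outlying nerve, stood highest in 5 genes: Emcn at 91.7, Eng at 222.0, Vwf at 460.5, Aplnr at 75.7 and Sox7 at 9.65. The other 3 nerves of that group lay between 34.9 and 40.8 for Emcn and between 20.3 and 23.3 for Aplnr. An injured Lepr-ctrl nerve at 2 wpc stood highest for Sox17 at 200.5 and lowest for Cspg4 at 16.6 and Abcc9 at 0.0949, and it had the highest share of mitochondrial counts, 33.0%. Injured Lepr-cKO nerves at 2 wpc stood highest for Sox7 at 23.6 and for Rgs5 at 221.1, the latter in the muscle-carrying nerve. The causes were not tested.

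In healthy Lepr-cKO nerves at 2 wpc the lowest values were Cd34 at 65.3, Pgf at 3.75, Angpt1 at 0.902 and Pdgfrb at 134.8. In healthy Lepr-ctrl nerves at 2 wpc Angpt1 was low in 1 nerve at 1.20 and Dll4 high in 1 nerve at 18.2. Healthy nerves at 4 wpc gave low values of Egfl7 at 58.6, Kdr at 41.1 and Erg at 8.51 in Lepr-ctrl, a high value of Pdgfrb at 259.1 in Lepr-ctrl, and a high value of Dll4 at 16.9 in Lepr-cKO.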

How the results depend on the processing

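The counts of members called after crush stayed within 1.5 times under DESeq2, its size factors in edgeR, leaving out mitochondrial genes, other filters, a sex term, the adjusted p alone and only the groups compared. The genotype, genotype by injury and time comparisons gave 0 members under each of these. Under the sex term the call of Apln in Lepr-ctrl at 2 wpc was lost (log2 -0.94). With only the groups compared, that of Vegfa in Lepr-cKO at 2 wpc was lost (log2 1.20, adjusted p = 0.0747). With the animal as a replicate block (17 mice), crush called 18 and 23 members in Lepr-ctrl at 2 and 4 wpc and 21 and 12 in Lepr-cKO (31.6%, 35.9%, 32% and 26.5% of all genes), and the interactions and changes over time 0, so the pairing moved no count by over 1.5 times. The single calls it changed are given above, and it changed no other.

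Leaving out each library in turn gave 16 to 20 members in Lepr-ctrl at 2 wpc, 20 to 22 at 4 wpc, 16 to 26 in Lepr-cKO at 2 wpc and 9 to 16 at 4 wpc, while 31.8% to 34.7%, 34.3% to 36.6%, 33.2% to 34.6% and 25.1% to 29.2% of all genes were called. Between genotypes in injured nerves it gave 0 to 1 at 2 wpc and 0 to 6 at 4 wpc, and for the change of the Lepr-cKO response over time 0 to 3 (0.00544% to 1.14%, 0.032% to 3.74% and 0.634% to 2.13% of all genes). The 16 at 2 wpc in Lepr-cKO came without the vessel-rich nerve, and the 9, the 6 and the 3 without the outlying nerve. At 2 wpc the 1 was Abcc9, in 3 of 10 fits. Without both the outlying and the muscle-carrying nerve, an alternative chosen after seeing the data, 9 members were called after crush in Lepr-cKO at 4 wpc. Of all genes in that fit, 15.4% were called higher and 10.3% lower there. Injured nerves between genotypes at 4 wpc gave 9 (1 higher, 8 lower, against 2.05% and 2.17% of all genes). The Lepr-cKO change over time gave 7, all lower (0.824%). The count of 0 between genotypes in injured nerves at 4 wpc thus depends on 1 nerve of 4, and the cause was not tested.

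Of 77 called member values, 59 stayed called under every alternative that gave an adjusted p, none reversed, and 44 of 1523 refits fell short of the cut-offs. DESeq2 gave no adjusted p for Abcc9 after crush in Lepr-ctrl at both times and in Lepr-cKO at 4 wpc. With 4 to 6 nerves a group, and totals down to 10905806 counts, the smallest detectable difference was not computed.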

Other observations

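Capillary genes outside the list of members changed after crush. Aqp1, the water channel, rose by 5.61, 6.84, 5.06 and 4.81 on the log2 scale in Lepr-ctrl at 2 and 4 wpc and Lepr-cKO at 2 and 4 wpc, and Car4, a carbonic anhydrase, rose by over 2-fold in 3 of these. Gpihbp1, the lipoprotein lipase anchor of capillaries, was lower in Lepr-ctrl at -1.89 and -2.42 and in Lepr-cKO at 4 wpc at -2.12. In that order, 4, 4, 2 and 4 of the 6 capillary genes rose and 2, 2, 1 and 1 fell. Of all genes tested, 19.8%, 20.1%, 20.9% and 16.8% rose and 14.3%, 15.9%, 13.4% and 10.8% fell. Of 8 genes of tip cells and sprouting, 3, 5, 3 and 3 fell and 1, 0, 1 and 1 rose, with Col4a1 and Col4a2, collagens of basement membranes, lower throughout. Col4a1 was at -1.76, -1.99, -1.76 and -1.37.

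The remaining lists gave these counts in the same order. Arterial genes rose in 1, 2, 2 and 0 of 7 and fell in 2, 2, 2 and 2, with Sema3g and Fbln5 lower throughout. Of 4 venous genes, which include the member Aplnr, 1, 1, 1 and 1 rose, each time Aplnr itself, and 0, 1, 0 and 1 fell. Of 6 smooth muscle genes 1, 1, 2 and 0 rose and none fell. They include Des, which skeletal muscle also makes, and the injured Lepr-cKO group at 2 wpc holds the muscle-carrying nerve. The part of muscle RNA in these counts was not tested. Of 6 genes for PDGF-B signalling and mural recruitment 1, 2, 2 and 1 rose, Tgfb1 throughout, and 1 fell, Tgfbr2 throughout. Of 3 tested genes of apelin and adrenomedullin signalling 0, 1, 1 and 1 rose and 0, 1, 1 and 1 fell. Of 5 tested lymphatic genes 1, 1, 1 and 2 rose and 2, 1, 2 and 1 fell. Of 8 fibroblast genes 1, 3, 1 and 3 rose and 2, 2, 1 and 0 fell, and of 6 perineurial genes 1, 4, 1 and 1 rose and 1 fell. Adipocyte genes rose in 5, 5, 0 and 0 of 6 and fell in 1, 0, 0 and 0, and Adipoq varied within the injured Lepr-ctrl nerves at 2 wpc from 0 to 17.9 CPM. Of 5 tested erythrocyte genes none rose and 0, 2, 0 and 0 fell. The part of any of these cell types in the vessel gene results was not tested.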
